A study of Mus musculus with 7 samples.

Results

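The genes described here are 46 regulators of the RAS-MAPK cascade, taken by name from the 35727 genes of the deposited count table. They comprise 5 RAS GTPases, 6 RAF, MEK and ERK kinases with the KSR scaffold, 5 RAS exchange factors, 7 GTPase-activating proteins, 7 feedback inhibitors of the Sprouty, SPRED and SEF families, 12 dual-specificity phosphatases, and 3 ETV transcription factors with Phlda1. Their transcripts were measured in mouse tumour cells carrying a red fluorescent protein and sorted on it, from undifferentiated pleomorphic sarcoma, a soft-tissue cancer with no clear line of differentiation. The models compared were p53KO cells labelled as overexpressing Vgll3 (vestigial-like family member 3, a partner of TEAD transcription factors; n = 3 libraries) and p53KO cells labelled as overexpressing Ccne1 (cyclin E1; n = 4 libraries). Both lines came from mesenchymal stem cells of female C57/Bl6 p53KO mice, received their gene by retrovirus, and were carried as subcutaneous tumours in female wild-type C57/Bl6 hosts before transplantation into experimental mice. Loss of p53 was therefore shared by both groups. Each model is 1 tumour line, so what the transduced gene does and what otherwise distinguishes the lines cannot be told apart. The labels do not say that the libraries of a model came from separate tumours, and the p-values below measure the spread between libraries, which may be technical.

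RAS proteins are small GTPases that exchange factors such as SOS switch on and GTPase-activating proteins switch off. Active RAS recruits RAF kinases, which activate MEK and then ERK. ERK induces many of its own brakes: Sprouty and SPRED proteins act at the level of RAS and RAF, and dual-specificity phosphatases (DUSPs) remove phosphate from ERK, JNK or p38.

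Library totals ranged from 26433220 to 47504434 counts in Vgll3-labelled libraries and from 21725890 to 53610300 counts in Ccne1-labelled libraries. Levels are given in CPM, that is, as counts scaled to library size and composition, and values after ± are SDs between libraries of a group. Vgll3 averaged 252 ± 34.6 CPM in Vgll3-labelled libraries and 50.7 ± 8.57 CPM in Ccne1-labelled libraries (SD), a log2 fold change of 2.31 (SE 0.15; adjusted p in edgeR = 1.2e-05). Ccne1 averaged 14.9 ± 2.16 CPM in Vgll3-labelled libraries and 12.7 ± 5.61 CPM in Ccne1-labelled libraries (SD, edgeR adjusted p = 0.609). The Ccne1 level thus does not bear out the Ccne1 label, and the groups are called by their labels throughout. The 10 mesenchymal markers summed to between 35012 and 42052 CPM in Vgll3-labelled libraries and between 23360 and 28536 CPM in Ccne1-labelled libraries, but went both ways: Col1a1, Col1a2, Pdgfrb and Cdh11 were called higher and Vim, Pdgfra, Prrx1 and S100a4 lower. Col1a2 and Col1a1 were the most abundant of them in Vgll3-labelled libraries and Vim in Ccne1-labelled libraries; the marker Thy1 was low, at no more than 2.54 CPM in any Vgll3-labelled and 9.42 CPM in any Ccne1-labelled library. Vgll3-labelled replicate 3 stood apart from replicates 1 and 2 of its group (Pearson's r of log2 CPM across genes 0.959 and 0.963, against 0.986 between those 2), and calls of regulators that change when it is left out are given with and without it.

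Most Sprouty, SPRED, SEF and DUSP genes were lower in Vgll3-labelled libraries, and the core of the cascade had genes called in both directions. Of the 46 genes, 45 had enough counts to be tested, and Rasgrp1 did not. At an edgeR adjusted p under 0.05, 19 of the 45 were lower and 5 were higher in Vgll3-labelled libraries; of all 13740 genes tested, 26.8% were lower, 25.1% were higher and 51.9% were called in either direction. Thus 42.2% of the tested regulators were lower and 11.1% higher. The count of higher genes was 8 without Vgll3-labelled replicate 3, and 3 without Vgll3-labelled replicate 1 or 2 or Ccne1-labelled replicate 1 or 3. Among these called genes, at least a 2-fold difference was seen in 7 regulators, all lower (Rasa3, Spry2, Spred1, Dusp1, Dusp3, Dusp4 and Dusp14), and in 0 that were higher; of all genes tested, 7.49% were both called and at least 2-fold lower, and 9.2% both called and at least 2-fold higher. Spry1, Il17rd and Rasgrp2 also differed by at least 2-fold but were not called. The libraries of the groups did not overlap for 24 regulators, 20 of them lower and 4 higher; of all genes tested, 55.7% did not overlap, 29.0% lower and 26.8% higher. The median log2 fold change was −0.17 over the 45 regulators and 0.01 over all genes tested. By role, 12 of the 19 Sprouty, SPRED, Il17rd and DUSP genes fell (63.2%) and 0 rose, with a median of −0.88. Of these 12, 4 encode phosphatases of the JNK and p38 type or atypical ones. Among the 22 tested RAS, kinase, exchange factor and GTPase-activating genes 6 fell (27.3%) and 5 rose (22.7%), shares near those of all genes. In bulk libraries such as these, fewer cells of a type and less RNA per cell cannot be told apart.

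**Figure D1:**
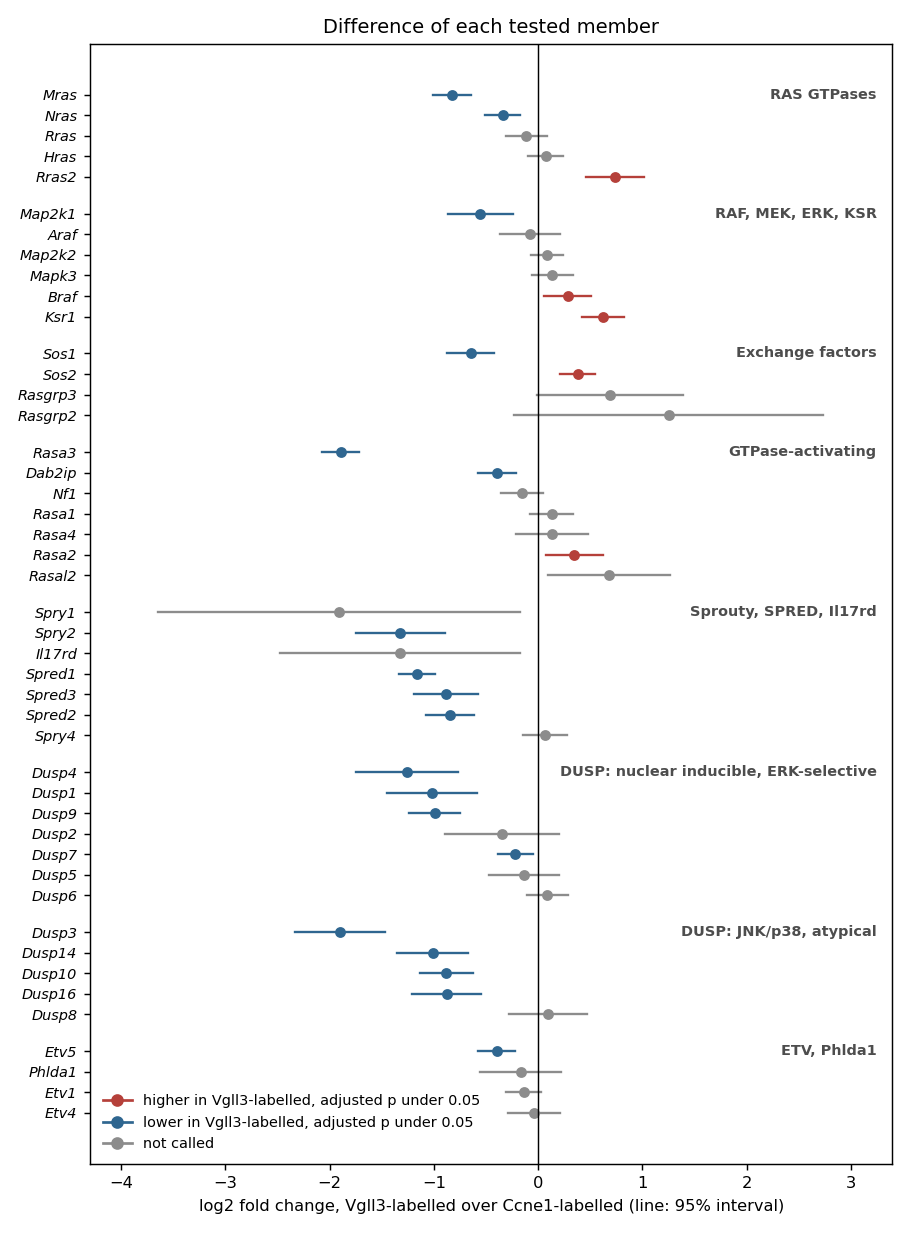
Log2 fold change of each tested regulator, Vgll3-labelled over Ccne1-labelled (x axis), with its 95% interval, grouped by role down the page. All 12 coloured Sprouty, SPRED and DUSP genes lie left of 0, from −0.22 for Dusp7 to −1.90 for Dusp3. Coloured points of the core groups lie on both sides.

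Of the 5 RAS GTPases, Mras and Nras fell and Rras2 rose. Mras, the M-RAS protein that with SHOC2 helps to activate RAF, had 42.0, 48.2 and 41.7 CPM in Vgll3-labelled libraries, against 79.7, 81.7, 77.6 and 72.5 CPM in Ccne1-labelled libraries. Every Vgll3-labelled library was below every Ccne1-labelled one, and edgeR gave a log2 fold change of −0.83 (SE 0.08, adjusted p = 5.7e-05). Rras2, which encodes the RAS relative TC21, had 113, 100.1 and 78.2 CPM in Vgll3-labelled libraries, against 52.0, 57.8, 61.1 and 62.1 CPM in Ccne1-labelled libraries. Here all Vgll3-labelled libraries were the higher ones (edgeR log2 fold change 0.74, SE 0.12, adjusted p = 0.0011). The level ratio of Rras2 to Mras was 2.70, 2.08 and 1.88 in Vgll3-labelled libraries and 0.653, 0.708, 0.788 and 0.856 in Ccne1-labelled libraries. Nras, one of the classical RAS oncogenes, averaged 91.6 ± 4.15 CPM in Vgll3-labelled and 116 ± 7.22 CPM in Ccne1-labelled libraries (SD), a log2 fold change of −0.34 (SE 0.07; adjusted p in edgeR = 0.0042). Hras, at 45.3 ± 3.02 CPM in Vgll3-labelled and 43.1 ± 1.83 CPM in Ccne1-labelled libraries (SD), was not called, with a 95% interval of its log2 fold change from −0.09 to 0.24. Rras, the R-RAS protein known for acting on integrin adhesion, was not called either (interval −0.31 to 0.09).

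Per kilobase of exon, the 5 RAS genes summed to a mean level of 101 CPM per kb in Vgll3-labelled libraries and 104 CPM per kb in Ccne1-labelled libraries, with overlapping ranges (91.8 to 108 in Vgll3-labelled, 97.8 to 109.8 in Ccne1-labelled). Rras2 made up 26.9% of this sum in Vgll3-labelled libraries (range 24.0% to 29.5%) and 15.8% in Ccne1-labelled libraries (range 14.8% to 17.1%). Mras made up 8.49% in Vgll3-labelled and 14.6% in Ccne1-labelled libraries, and Rras was the leading member in both, at 35.6% in Vgll3-labelled and 37.4% in Ccne1-labelled libraries.

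Of the kinases, Map2k1, which encodes MEK1, fell. It had 88.4, 70.6 and 59.8 CPM in Vgll3-labelled libraries, against 96.8, 124, 103 and 104 CPM in Ccne1-labelled libraries. The groups did not overlap, although Vgll3-labelled replicate 1 and Ccne1-labelled replicate 1 lay close (edgeR log2 fold change −0.55, SE 0.14, adjusted p = 0.0094). Map2k2, which encodes the sister kinase MEK2, averaged 87.8 ± 6.27 CPM in Vgll3-labelled and 82.9 ± 0.938 CPM in Ccne1-labelled libraries (SD) and was not called. Ksr1, the scaffold that holds RAF, MEK and ERK together, rose: it had 32.3, 39.7 and 37.7 CPM in Vgll3-labelled libraries, against 24.1, 24.9, 23.7 and 22.0 CPM in Ccne1-labelled libraries. All Vgll3-labelled values were above all Ccne1-labelled values (edgeR log2 fold change 0.62, SE 0.09, adjusted p = 0.00047), on a chromosome, 11, whose tested genes had a median log2 fold change of −0.30. Braf was 0.28 higher on the log2 scale (SE 0.10, edgeR adjusted p = 0.039), less than the median of 0.39 over the tested genes of its chromosome, 6, and was not called without Vgll3-labelled replicate 1 or 2 or Ccne1-labelled replicate 1, 3 or 4 (edgeR adjusted p between 0.0522 and 0.124). Exons of Braf overlap those of Ndufb2 on the other strand (mean 14.2 CPM in Vgll3-labelled and 10.6 CPM in Ccne1-labelled libraries). Whether counting used strand is not given in the sources used here, so the value of Braf is uncertain to that extent. Araf and Mapk3, which encodes ERK1, were not called, with intervals of −0.36 to 0.21 and −0.06 to 0.33. Without Vgll3-labelled replicate 3 both were called, Araf, which fell by 0.25 on the log2 scale (edgeR adjusted p = 0.043), and Mapk3, which was 0.23 higher (edgeR adjusted p = 0.032).

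The exchange factors SOS1 and SOS2, which load RAS with GTP downstream of receptor tyrosine kinases, moved in opposite directions. Sos1 had 49.2, 45.0 and 39.4 CPM in Vgll3-labelled libraries, against 62.7, 70.7, 69.1 and 76.6 CPM in Ccne1-labelled libraries (edgeR log2 fold change −0.65, SE 0.10, adjusted p = 0.00064). Sos2 had 32.6, 37.5 and 34.8 CPM in Vgll3-labelled libraries, against 27.3, 25.9, 27.3 and 26.9 CPM in Ccne1-labelled libraries (edgeR log2 fold change 0.38, SE 0.07, adjusted p = 0.0025). Neither gene's groups overlapped, and the level ratio of Sos2 to Sos1 was 0.793 ± 0.116 in Vgll3-labelled and 0.387 ± 0.0368 in Ccne1-labelled libraries (SD). Sos1 lies on chromosome 17, whose tested genes had a median log2 fold change of −0.33. The RASGRP exchange factors, which respond to diacylglycerol and are best known from blood cells, were low. Rasgrp3 had 8.81, 5.97 and 3.71 CPM in Vgll3-labelled libraries and between 2.85 and 4.91 CPM in Ccne1-labelled libraries, with overlap through replicate 3, and was not called (log2 fold change 0.69, edgeR adjusted p = 0.0896). Without Vgll3-labelled replicate 3, Rasgrp3 was 0.96 higher on the log2 scale and was called (edgeR adjusted p = 0.0125). Rasgrp2 lay between 0.343 and 1.44 CPM in Vgll3-labelled and between 0.109 and 0.591 CPM in Ccne1-labelled libraries and was not called, and Rasgrp1 reached at most 0.301 CPM in any library. The pan-leukocyte markers summed to between 7.25 and 13.4 CPM in Vgll3-labelled and between 9.77 and 21.7 CPM in Ccne1-labelled libraries, and the 8 T cell markers to at most 1.67 CPM in any library; their part in these low levels was not tested.

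**Figure D2:**
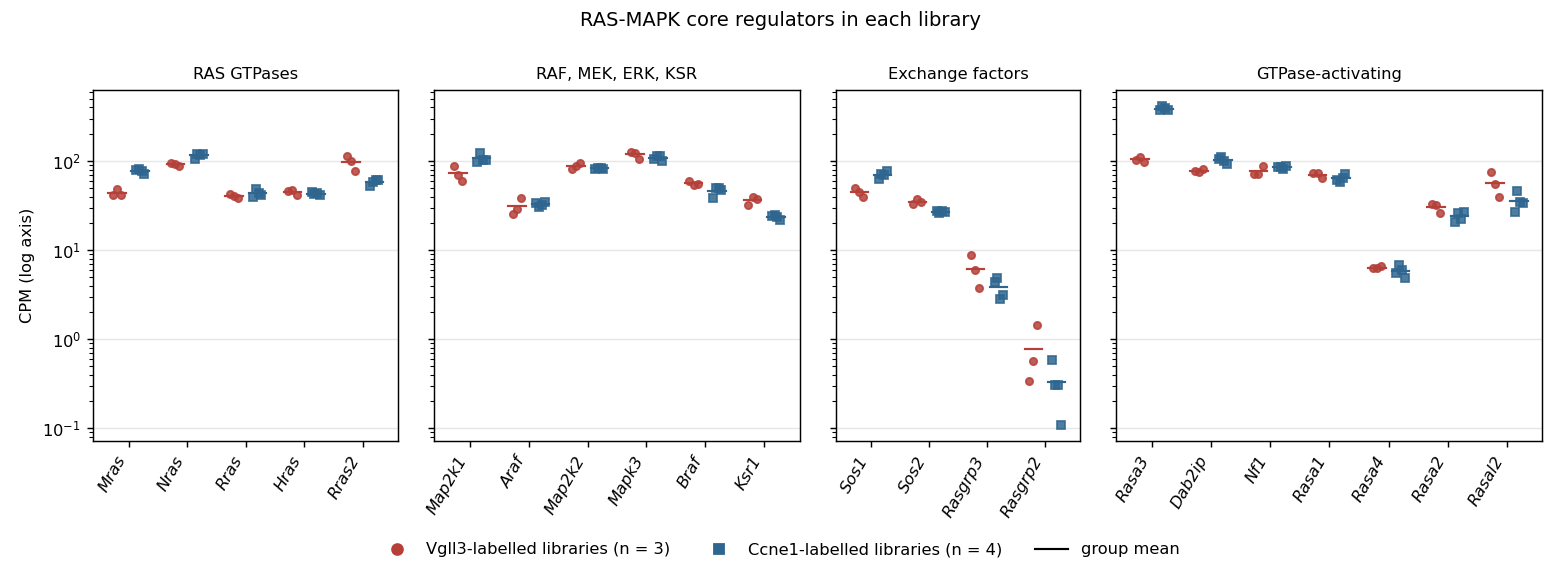
CPM on a log axis of each tested RAS GTPase, kinase, exchange factor and GTPase-activating gene, one point per library, Vgll3-labelled left of Ccne1-labelled, with a line at each group mean. Rasa3 shows the widest gap of the panel, at 98.6 to 111 CPM in Vgll3-labelled and 369.8 to 417 CPM in Ccne1-labelled libraries.

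Rasa3 was the regulator of this core with the largest difference. It encodes a GTPase-activating protein of the GAP1 family that binds phosphoinositides and acts on RAS and RAP1, and it lies on the minus strand of chr8:13566948-13677603 (GRCm38, the same build as mm10). Rasa3 had 104, 111 and 98.6 CPM in Vgll3-labelled libraries, against 369.8, 417, 390.4 and 379 CPM in Ccne1-labelled libraries. The Ccne1-labelled values were tightly grouped at a mean of 389 ± 20.5 CPM (SD), and the highest Vgll3-labelled value was well below the lowest of them. The log2 fold change was −1.90 (SE 0.08, 95% interval −2.08 to −1.72, edgeR adjusted p = 2.4e-06). Dab2ip, a GTPase-activating protein known as a tumour suppressor, averaged 77.9 ± 3.41 CPM in Vgll3-labelled and 102 ± 8.05 CPM in Ccne1-labelled libraries (SD). Its log2 fold change was −0.39 (SE 0.08, adjusted p in edgeR = 0.003). Rasa2 was 0.35 higher on the log2 scale (SE 0.12, edgeR adjusted p = 0.038), but its libraries overlapped, at 26.2 CPM in Vgll3-labelled replicate 3 and 26.9 CPM in Ccne1-labelled replicate 4, and it was not called without Vgll3-labelled replicate 1 or 2 or Ccne1-labelled replicate 1 or 3 (edgeR adjusted p between 0.0862 and 0.132). Nf1, which encodes neurofibromin, averaged 76.8 ± 9.79 CPM in Vgll3-labelled and 85.3 ± 2.94 CPM in Ccne1-labelled libraries (SD) and was not called, with an interval of −0.35 to 0.05; without Vgll3-labelled replicate 3 it fell by 0.25 on the log2 scale and was called (edgeR adjusted p = 0.013). Rasa1, which encodes p120 RasGAP, and Rasa4 were not called. Rasal2 had 75.2, 55.6 and 39.0 CPM in Vgll3-labelled libraries, against 27.1, 46.3, 34.5 and 33.4 CPM in Ccne1-labelled libraries. It missed the threshold (edgeR log2 fold change 0.68, SE 0.25, adjusted p = 0.0544, and 0.0062 with DESeq2). It was called without Vgll3-labelled replicate 3 (log2 fold change 0.90, edgeR adjusted p = 0.012) and without Ccne1-labelled replicate 2 (0.84, edgeR adjusted p = 0.028). Exons of Rasal2 overlap those of 2810025M15Rik on the other strand (mean 18.9 CPM in Vgll3-labelled and 13.0 CPM in Ccne1-labelled libraries). The limit of strand given for Braf holds here too.

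The stretches below are the promoters of Rasa3, Spry2 and Dusp1, a regulator of each inhibitory class that was at least 2-fold lower, and of Dusp6, a feedback gene that was not called. Each covers bases 250 to 51 before the RefSeq start site on the gene's own strand (GRCm38.p6), which for Dusp1 lies inside the longer gene bounds of GENCODE, at chr8:13677638-13677837 on the minus strand, chr14:105896870-105897069 on the minus strand, chr17:26508523-26508722 on the minus strand and chr10:99262981-99263180 on the plus strand. Capitals mark the letters GGAATG, the core that TEAD factors bind, TGACGT, the core of the cyclic AMP response element, and CACGTG, the E-box.
Rasa3: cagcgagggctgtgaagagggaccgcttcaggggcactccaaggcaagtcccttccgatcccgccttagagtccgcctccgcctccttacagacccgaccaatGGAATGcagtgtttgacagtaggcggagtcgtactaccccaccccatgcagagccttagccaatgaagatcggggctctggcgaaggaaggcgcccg
Spry2: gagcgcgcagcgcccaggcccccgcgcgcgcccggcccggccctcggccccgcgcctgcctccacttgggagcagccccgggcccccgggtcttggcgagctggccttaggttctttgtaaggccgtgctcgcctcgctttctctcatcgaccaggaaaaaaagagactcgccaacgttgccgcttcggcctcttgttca
Dusp1: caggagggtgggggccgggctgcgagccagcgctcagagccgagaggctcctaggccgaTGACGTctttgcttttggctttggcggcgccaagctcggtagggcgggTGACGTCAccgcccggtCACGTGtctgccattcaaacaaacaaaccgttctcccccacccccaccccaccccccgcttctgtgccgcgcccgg
Dusp6: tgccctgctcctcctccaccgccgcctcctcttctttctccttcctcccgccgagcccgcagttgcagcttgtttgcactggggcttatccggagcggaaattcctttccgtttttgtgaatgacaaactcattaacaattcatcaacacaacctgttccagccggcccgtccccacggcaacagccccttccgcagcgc

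Rasa3 held GGAATG 147 bases before its start. Dusp1 held TGACGT 191 bases before its start and again from base 143, where it runs into its own reverse complement, with CACGTG at base 126. Spry2 and Dusp6 held none of the motifs searched. Both strands of the 250 bases before the start were searched for these and for CCGGAA (ETS), TGANTCA (AP-1) and the CArG box, in 50 entries for 40 of the 46 genes. GGAATG was in 7 of the 50 entries, beside 12.6% of the 32851 entries of the table; TGACGT was in 7, beside 6.47% of all entries, and CCGGAA in 10, beside 12.03%. CACGTG was in 3 entries, beside 6.02%, the CArG box in 2, beside 1.47%, and TGANTCA in 1, beside 6.75%. A match says only that these letters stand in the window.

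The Sprouty, SPRED and SEF genes were lower at 4 of 7 members (57.1%), beside 26.8% of all genes tested. Of the 7, 0 were higher, beside 25.1% (median log2 fold change −1.16). Spry2, on the minus strand of chr14:105891947-105896819, encodes a Sprouty protein that blocks receptor tyrosine kinase signalling to RAS. It had 51.0, 29.9 and 38.1 CPM in Vgll3-labelled libraries, against 95.7, 116, 85.4 and 100.6 CPM in Ccne1-labelled libraries. The groups were far apart, although each varied within itself (edgeR log2 fold change −1.32, SE 0.18, adjusted p = 0.00064). Spred1, which brings neurofibromin to the membrane and is mutated in Legius syndrome, had 139, 127 and 125 CPM in Vgll3-labelled libraries, against 288, 283, 312 and 282 CPM in Ccne1-labelled libraries. Both groups were tight, and edgeR gave a log2 fold change of −1.16 (SE 0.08, adjusted p = 1.0e-05). Spred2 averaged 59.2 ± 7.62 CPM in Vgll3-labelled and 106 ± 8.65 CPM in Ccne1-labelled libraries (edgeR log2 fold change −0.84, SE 0.10, adjusted p = 0.0002). Spred3 averaged 24.4 ± 5.22 CPM in Vgll3-labelled and 45.1 ± 2.31 CPM in Ccne1-labelled libraries (edgeR log2 fold change −0.88, SE 0.14, adjusted p = 0.00069). All 3 SPRED genes were thus lower without overlap between the groups.

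Spry1 and Il17rd were low in Vgll3-labelled replicates 1 and 2 and less so in replicate 3. Spry1, a Sprouty gene on chr3:37639947-37644598, plus strand, had 6.52, 6.57 and 39.3 CPM in Vgll3-labelled libraries, against 68.0, 73.4, 56.9 and 62.6 CPM in Ccne1-labelled libraries. Replicate 3 stood at 6.003 times the mean of replicates 1 and 2, yet still below every Ccne1-labelled library. With all libraries the log2 fold change was −1.91 (SE 0.71) and missed the threshold (edgeR adjusted p = 0.0655); without replicate 3 it was −3.31 (edgeR adjusted p = 4.6e-07), and with all libraries DESeq2 gave adjusted p = 0.014 and limma-voom 0.0023. Il17rd, which encodes SEF, an inhibitor of fibroblast growth factor and ERK signalling, had 1.24, 1.81 and 5.39 CPM in Vgll3-labelled libraries, against 4.73, 8.01, 7.43 and 7.74 CPM in Ccne1-labelled libraries. Replicate 3 lay above the lowest Ccne1-labelled library, and the edgeR adjusted p was 0.0555 with it (log2 fold change −1.32) and 0.00019 without it (−2.21). Among Vgll3-labelled libraries, the summed endothelial markers were also highest in replicate 3. The 8 of them had 30.0, 57.7 and 222 CPM in Vgll3-labelled libraries, against 123, 44.3, 77.7 and 49.3 CPM in Ccne1-labelled libraries. Pecam1 alone stood at 184 CPM in Vgll3-labelled replicate 3, and 0 of the 8 were called. Within that group Tek and Cldn5 were highest in replicate 2, and the other endothelial markers in replicate 3. In Vgll3-labelled replicates 1, 2 and 3, macrophage markers summed to 5.66, 6.80 and 12.5 CPM and B cell markers to 0.965, 1.47 and 4.99 CPM. Pan-leukocyte markers summed to 10.1, 7.25 and 13.4 CPM, so these sums were also highest in replicate 3. Against them, Ccne1-labelled libraries had 7.38 to 11.9 CPM of macrophage, 0.681 to 1.64 CPM of B cell and 9.77 to 21.7 CPM of pan-leukocyte markers. Not every marker followed its sum: Cd53 of the leukocyte list and Mrc1 of the macrophage list were highest in Vgll3-labelled replicate 1. The part of these cells in the levels of Spry1 and Il17rd was not tested. Spry4, the remaining Sprouty gene, averaged 28.5 ± 2.71 CPM in Vgll3-labelled and 27.2 ± 1.99 CPM in Ccne1-labelled libraries (SD) and was not called (interval −0.15 to 0.27).

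**Figure D3:**
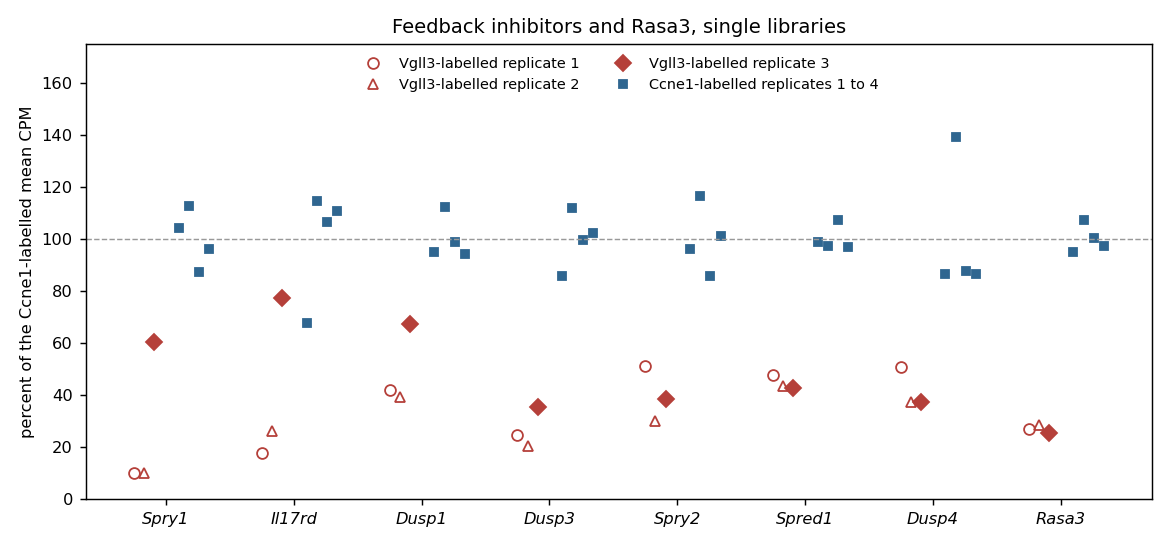
Level of 8 regulators in each library as a percent of the gene's Ccne1-labelled mean CPM (y axis); open and filled red symbols are Vgll3-labelled replicates 1 to 3 and blue squares are Ccne1-labelled libraries. Vgll3-labelled replicate 3 (diamond) stands above replicates 1 and 2 for Spry1, Il17rd, Dusp1 and Dusp3, and among or below them for Spry2, Spred1, Dusp4 and Rasa3.

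Per kilobase of exon, the 3 Sprouty genes summed to 31.0 CPM per kb in Vgll3-labelled libraries (range 21.9 to 38.1) and 75.8 CPM per kb in Ccne1-labelled libraries (range 66.0 to 87.1). Spry2 was the leading Sprouty transcript in both, at 62.5% of the Vgll3-labelled and 62.8% of the Ccne1-labelled sum. Spry4 made up 20.0% of the Vgll3-labelled sum and 7.59% of the Ccne1-labelled sum. The 3 SPRED genes summed to 35.9 CPM per kb in Vgll3-labelled and 73.2 CPM per kb in Ccne1-labelled libraries, and Spred1 led with 53.5% in Vgll3-labelled and 58.7% in Ccne1-labelled libraries.

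The dual-specificity phosphatases were lower at 8 of 12 members (66.7%) and higher at 0, beside 26.8% and 25.1% of all genes tested. Their median log2 fold change was −0.88. Among the inducible nuclear enzymes, Dusp4 (MKP-2), which acts on ERK and JNK, had 214.5, 158 and 157 CPM in Vgll3-labelled libraries, against 365, 588, 370.2 and 366 CPM in Ccne1-labelled libraries. Ccne1-labelled replicate 2 stood above the rest, and the other 3 of its group still exceeded every Vgll3-labelled library (edgeR log2 fold change −1.26, SE 0.21, adjusted p = 0.0017). Dusp1 (MKP-1), the stress-inducible phosphatase of p38, JNK and ERK, had 309.6, 289 and 499 CPM in Vgll3-labelled libraries, against 702, 831, 730.4 and 698 CPM in Ccne1-labelled libraries. Vgll3-labelled replicate 3 was again the highest of its group, and the groups did not overlap (edgeR log2 fold change −1.02, SE 0.19, adjusted p = 0.0023). Like Sos1, Dusp1 lies on chromosome 17, whose tested genes had a median log2 fold change of −0.33. Exons of Dusp1 overlap those of Ergic1 on the other strand (mean 128 CPM in Vgll3-labelled and 177 CPM in Ccne1-labelled libraries), and whether counting used strand is not given in the sources used here, so its value is uncertain to that extent. Dusp2, another nuclear enzyme, averaged 18.8 ± 3.81 CPM in Vgll3-labelled and 24.0 ± 7.04 CPM in Ccne1-labelled libraries (SD). Dusp5, the nuclear ERK phosphatase, averaged 90.6 ± 13.4 CPM in Vgll3-labelled and 99.8 ± 17.6 CPM in Ccne1-labelled libraries. Neither Dusp2 nor Dusp5 was called.

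Dusp1 is also among the genes that tissue dissociation is known to induce. Of 15 such immediate-early and heat-shock genes, 4 were higher, led by Egr1 and Btg2, and 3 were lower, with Hspb1 and Socs3 falling furthest. These shares, 26.7% higher and 20.0% lower, stand beside 25.1% and 26.8% of all genes tested. Only 1 was lower without Vgll3-labelled replicate 3, and 2 were without Vgll3-labelled replicate 2 or Ccne1-labelled replicate 1, 2 or 3. Their summed level was 12471 to 16509 CPM in Vgll3-labelled and 10378 to 13545 CPM in Ccne1-labelled libraries, a difference with a two-sided exact permutation p of 0.0857 (0.135 adjusted over 11 lists; the smallest p possible is 0.0286). The part of dissociation in the level of Dusp1 was not tested.

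The cytoplasmic phosphatases selective for ERK split. Dusp6 (MKP-3), on chr10:99263231-99267489, plus strand, is widely used as a transcript readout of ERK activity. It had 194, 172 and 163 CPM in Vgll3-labelled libraries, against 150.2, 177, 168 and 168 CPM in Ccne1-labelled libraries. The groups overlapped, and the log2 fold change of 0.09 (SE 0.09) had a 95% interval from −0.11 to 0.28, which leaves out a 2-fold difference either way. Dusp9 (MKP-4) had 14.6, 12.7 and 15.1 CPM in Vgll3-labelled libraries, against 31.6, 26.7, 29.3 and 25.0 CPM in Ccne1-labelled libraries. All Ccne1-labelled libraries were the higher ones (edgeR log2 fold change −0.99, SE 0.11, adjusted p = 0.00011). Dusp7 (PYST2) fell by 0.22 on the log2 scale (SE 0.07, edgeR adjusted p = 0.033), a call that did not hold in 8 of 13 other settings, among them without Vgll3-labelled replicate 3 (fell by 0.15, edgeR adjusted p = 0.110). The level ratio of Dusp6 to Dusp4 was 0.905, 1.09 and 1.04 in Vgll3-labelled libraries and 0.412, 0.302, 0.455 and 0.460 in Ccne1-labelled libraries.

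The phosphatases of JNK and p38 and the atypical enzymes were lower at 4 of 5 members, beside 26.8% of all genes tested. Dusp3 (VHR), an atypical phosphatase known to act on ERK and JNK, had 12.4, 10.2 and 17.9 CPM in Vgll3-labelled libraries, against 43.2, 56.3, 50.1 and 51.5 CPM in Ccne1-labelled libraries. Its highest Vgll3-labelled value was under the lowest Ccne1-labelled one by a wide margin (edgeR log2 fold change −1.90, SE 0.19, adjusted p = 9.2e-05). Dusp14 (MKP-6), another atypical member, had 12.3, 14.7 and 19.2 CPM in Vgll3-labelled libraries, against 28.1, 34.5, 29.2 and 31.9 CPM in Ccne1-labelled libraries (edgeR log2 fold change −1.01, SE 0.15, adjusted p = 0.00058). Dusp3, Dusp14 and Spred2 lie on chromosome 11, whose tested genes had a median of −0.30, so each of them was also below that median. Dusp10 (MKP-5) averaged 43.5 ± 3.41 CPM in Vgll3-labelled and 80.1 ± 10.6 CPM in Ccne1-labelled libraries (edgeR log2 fold change −0.88, SE 0.11, adjusted p = 0.00023). Dusp16 (MKP-7) averaged 41.1 ± 5.97 CPM in Vgll3-labelled and 75.5 ± 12.6 CPM in Ccne1-labelled libraries (edgeR log2 fold change −0.88, SE 0.14, adjusted p = 0.0011), on chromosome 6, where the median was 0.39. Dusp8, a JNK and p38 phosphatase, was not called, at 37.9 ± 10.1 CPM in Vgll3-labelled and 35.5 ± 3.31 CPM in Ccne1-labelled libraries (SD).

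Per kilobase of exon, the 12 phosphatases summed to 338 CPM per kb in Vgll3-labelled libraries (range 298 to 368) and 583 CPM per kb in Ccne1-labelled libraries (range 545 to 692). Dusp1 led this sum, with 32.4% in Vgll3-labelled and 38.5% in Ccne1-labelled libraries, and Dusp6 made up 16.8% in Vgll3-labelled and 9.15% in Ccne1-labelled libraries.

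**Figure D4:**
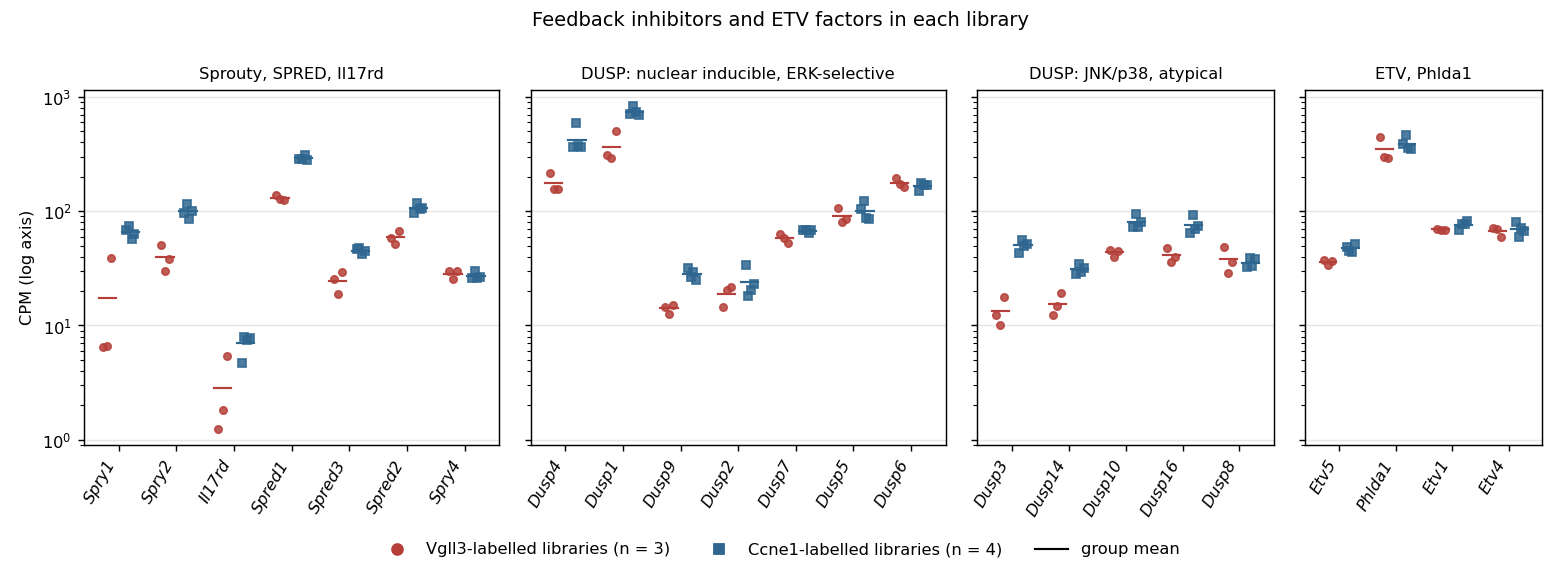
CPM on a log axis of each Sprouty, SPRED, DUSP and ETV gene with Il17rd and Phlda1, one point per library, Vgll3-labelled left of Ccne1-labelled, with a line at each group mean. Dusp6 and Spry4 overlap between groups, while Spred1 (125 to 139 CPM in Vgll3-labelled, 282 to 312 CPM in Ccne1-labelled libraries) and Dusp3 (10.2 to 17.9 CPM in Vgll3-labelled, 43.2 to 56.3 CPM in Ccne1-labelled libraries) do not.

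The ETV factors and Phlda1 are transcripts known to rise with ERK activity. Of the 4, 1 was called, beside 51.9% of all genes tested. Without Vgll3-labelled replicate 1, and without Ccne1-labelled replicate 1, 2 were lower. Etv5, a PEA3-family transcription factor, averaged 36.0 ± 1.74 CPM in Vgll3-labelled and 47.4 ± 3.32 CPM in Ccne1-labelled libraries (SD), without overlap (edgeR log2 fold change −0.40, SE 0.08, adjusted p = 0.0029). Its relatives Etv1 and Etv4 were not called, with 95% intervals of −0.31 to 0.03 and −0.29 to 0.21; Etv1 was called without Ccne1-labelled replicate 1 (log2 fold change −0.19, edgeR adjusted p = 0.038). Phlda1, a pleckstrin-homology protein, had 449, 297 and 294 CPM in Vgll3-labelled libraries and between 349.6 and 464 CPM in Ccne1-labelled libraries, and was not called (interval −0.56 to 0.22). Without Vgll3-labelled replicate 1 it fell by 0.40 on the log2 scale and was called (edgeR adjusted p = 0.026).

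Genes around these regulators gave a mixed picture. Of 23 genes listed as ERK-responsive outside the 46, 22 were tested and Epha4 was too low to test. The list also held the transcription factors Elk1, Elk3 and Elk4, so its counts are not of ERK-induced transcripts alone. Of these 22, 11 rose and 8 fell, beside 25.1% and 26.8% of all genes tested, and their median log2 value was 0.04. With 1 library left out, 9 to 11 rose and 8 or 9 fell. Egr1, an immediate-early zinc finger factor, had 1428, 1322 and 1378 CPM in Vgll3-labelled libraries, against 197, 177, 189 and 169 CPM in Ccne1-labelled libraries (edgeR log2 fold change 2.91, SE 0.08, adjusted p = 8.4e-07). Egr2, its relative, was 3.42 higher on the log2 scale (SE 0.14, edgeR adjusted p = 2.0e-06). Ier3, an early-response gene, went the other way, with 230.1, 107 and 120.5 CPM in Vgll3-labelled libraries, against 724, 1061, 776 and 804 CPM in Ccne1-labelled libraries (edgeR log2 fold change −2.46, SE 0.31, adjusted p = 0.00053). Vgf, a neurosecretory gene, was lower too (edgeR adjusted p = 0.0031) but barely detected, at no more than 0.1004 CPM in any Vgll3-labelled and 0.789 CPM in any Ccne1-labelled library. Of transcripts that ERK is known to induce, Egr1 and Egr2 were thus higher and Ier3 lower in the same libraries. ERK phosphorylation was not measured. Egr1, Fos, Ier2 and Junb were also on the list of dissociation genes above. The part of dissociation in their levels was not tested.

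**Figure D5:**
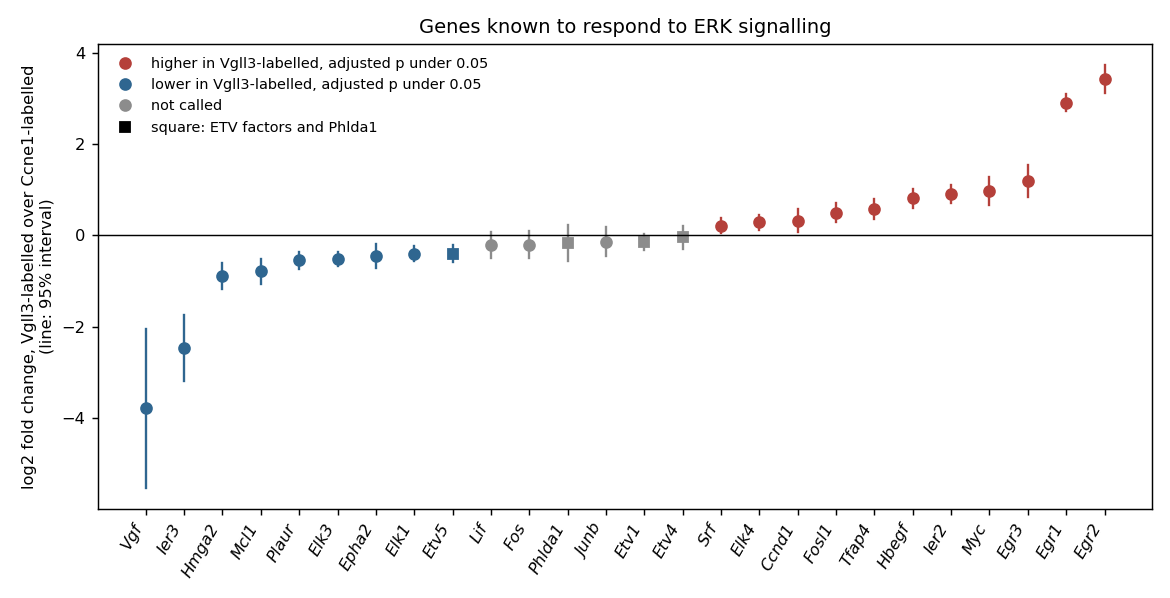
Log2 fold change, Vgll3-labelled over Ccne1-labelled, with its 95% interval, of 22 genes listed as ERK-responsive outside the 46 (circles) and of the ETV factors and Phlda1 (squares). Egr1 and Egr2 stand at 2.91 and 3.42, Ier3 and Vgf at −2.46 and −3.79, and the squares between −0.40 and −0.04.

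Beside the counts of this paragraph, 26.8% of all genes tested were lower and 25.1% higher. Of 15 adaptors and scaffolds of RAS-MAPK signalling, 10 were lower and 0 were higher (median log2 fold change −0.38). With 1 library left out, between 8 and 10 were lower, and 1 was higher without Vgll3-labelled replicate 3. Gab2, a docking protein, averaged 22.9 ± 5.71 CPM in Vgll3-labelled and 46.7 ± 3.74 CPM in Ccne1-labelled libraries (edgeR log2 fold change −1.03, SE 0.15, adjusted p = 0.00067). Cnksr3, a scaffold of the connector enhancer of KSR family, fell by 0.94 on the log2 scale (SE 0.13, edgeR adjusted p = 0.00038). Of 20 other RAS and RAP regulators and effectors, 15 were tested. Of these, Rap1gap2 and Rassf5 rose, and 7 fell, with Rap1gap and Rin1 furthest (median −0.27). Without Vgll3-labelled replicate 3, 8 fell. Rap1gap2, which turns RAP1 off, had 2.94, 3.401 and 1.44 CPM in Vgll3-labelled libraries, against 0.182, 0.308, 0.217 and 0.254 CPM in Ccne1-labelled libraries, while its relative Rap1gap averaged 18.8 ± 2.37 CPM in Vgll3-labelled and 34.2 ± 2.18 CPM in Ccne1-labelled libraries (SD). Of 7 kinases that ERK or p38 activates, 3 rose, led by Rps6ka5 (MSK1) and Mknk2 (MNK2), with a median of 0.27 over the 7. The 2 that fell were Rps6ka1 (RSK1) and Rps6ka3 (RSK2). With 1 library left out, between 2 and 4 rose, and 1 fell without Vgll3-labelled replicate 2. Of 11 JNK and p38 kinases and their activators, 6 fell and 1 rose, Mapk12 (p38 gamma), with a median of −0.39 over the 11. Mapk11 and Mapk14 (p38 beta and alpha) fell furthest. With 1 library left out, between 5 and 7 fell, and 2 rose without Vgll3-labelled replicate 3.

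Markers of other cells that a sort could carry over were low in both groups except for mural and endothelial genes. The 6 pericyte and smooth muscle markers summed to between 309 and 455 CPM in Vgll3-labelled and between 558 and 632 CPM in Ccne1-labelled libraries; of the 5 tested, Cspg4 was lower and Rgs5, Acta2, Notch3 and Des were higher. Platelet markers summed to between 2.98 and 5.21 CPM in Vgll3-labelled and between 1.27 and 2.20 CPM in Ccne1-labelled libraries. They went both ways: of the 2 tested, Gp1bb, the leading one, was called higher and Itga2b lower. Epithelial markers, with Krt5 at 0 in every library, summed to at most 1.00 CPM in Vgll3-labelled and 4.73 CPM in Ccne1-labelled libraries, and erythroid markers to at most 2.21 CPM in Vgll3-labelled and 10.3 CPM in Ccne1-labelled libraries. The part of such cells in the levels of the 46 genes was not tested.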

How the data were processed

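PolyA RNA of the sorted cells was sequenced, and the authors deposited a table of estimated counts, with Ensembl genes in rows and libraries in columns; its values were all whole. Per the submitters' processing notes, Salmon and the build mm10 were used; neither the version and annotation nor the strand setting is given in the sources used here. The 46 genes and all lists were chosen with earlier results of these data known. Named outside the 46 are the 2 most raised and 2 most lowered called genes of each companion list and the leading gene of marker lists; other companion and marker genes named were chosen after their values were seen.

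The whole table was fitted with edgeR 4.0.16 in R 4.3.3 (filterByExpr, TMM scaling, robust quasi-likelihood F test, group as the only term), and Benjamini-Hochberg adjustment covered all 13740 genes tested, at 0.05. Fold changes set Vgll3-labelled over Ccne1-labelled libraries; the SE of a log2 value is its size over the square root of F. A count of 3 stood for 0.0577 to 0.136 CPM. Sums of markers were compared by exact permutation over 35 assignments. Alternatives were DESeq2 1.42.0, limma-voom 3.58.1, other scaling, no filter, a block and each library left out. Gene bounds are from GENCODE M21 (GRCm38).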

Additional observations from a re-analysis of the deposited data

Results flagged for a closer look

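In 3 of the 56 groups of 4 Ccne1-labelled libraries examined, 1 library lay far from the other 3 by Dixon's test, a share that chance gives in about 5% of groups. Dusp4 stood at 588 CPM in Ccne1-labelled replicate 2, with the next library at 370.2 CPM. Spry4 stood at 30.2 CPM in the same library, with the next at 26.6 CPM. The summed epithelial markers stood at 4.73 CPM in that library too, with the next at 2.46 CPM. Without that library Dusp4 was still called (edgeR log2 fold change −1.06) and Spry4 was not (0.12). Ccne1-labelled replicate 2 was also the most deeply sequenced, at 53610300 counts.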

How the results depend on the processing

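Across 13 alternatives (other scaling, no filter on low counts, DESeq2, limma-voom, the replicate block, and each library left out), 20 of the 24 called genes kept their call and 0 of the 24 changed direction. The count of higher genes rests in part on weak calls, those of Braf and Rasa2. It was 5, between 3 and 8 with 1 library left out, and 3 with the replicate block. The 8 came without Vgll3-labelled replicate 3, and 3 each without Vgll3-labelled replicate 1 or 2 or Ccne1-labelled replicate 1 or 3. Rras2, Ksr1 and Sos2 kept their calls in all 13 alternatives. Lower calls moved too: of the Sprouty, SPRED and SEF genes 4 were lower, and 6 without Vgll3-labelled replicate 3. Nras lost its call with the block (edgeR adjusted p = 0.05999), Braf in 7, Rasa2 in 5 and Dusp7 in 8 alternatives. Of the 21 genes not called, 9 passed in some alternative, and 3 turned direction with 1 library left out: Araf between −0.25 and 0.0397, Dusp8 between −0.13 and 0.25, and Etv4 between −0.11 and 0.0481 (log2). Over all genes, 3454 were higher, and 2287 with the replicate block. The replicate numbers do not pair the libraries (correlations of deviations −0.15, −0.17 and −0.10 between same-numbered libraries), and libraries did not correlate best with their own number. With 3 against 4 libraries and no stated separate tumours, genes under about 1 CPM, such as Rasgrp1 and Rasgrp2, are the least certain.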
